A study of Mus musculus with 2 samples.

Results

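The genes described here were taken as a given list of red pulp macrophage identity genes. This macrophage is the resident phagocyte of the splenic red pulp and clears aged red blood cells. The 10 genes are Adgre1, Vcam1, Siglec1, Csf1r, Csf1, Gab3, Axl, Mertk, Cd5l and Fcna. Most encode surface or secreted proteins, whereas Gab3 encodes a signalling adaptor. All 10 had at least 1 probe whose RefSeq transcript accession named them, 18 probes in all, out of 20642 named genes and 39386 probes on the array. The study set wild-type (WT) cells against cells of SIRPα-KO mice. SIRPα is a receptor through which myeloid cells are held back from engulfing cells that carry CD47. Each genotype was a single sample of cells from 5 mice, read on 1 array. Both samples came from digested spleens after lysis of red blood cells and were sorted as F4/80-positive cells with low CD11b, and both RNAs were depleted of globin transcripts. The labels name no strain, age or sex, nor the kind of SIRPα deletion. With 1 array for each genotype there was no test across samples. A gene or probe was counted as higher or lower where the arrays differed at least 2-fold, and no difference below has a replicate check.

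Red pulp macrophages depend on signalling through the CSF1 receptor, a tyrosine kinase that CSF1 or IL-34 activates and that works through adaptors of the GAB family. They carry F4/80 and VCAM1 on their surface, while CD169, encoded by Siglec1, is best known from the metallophilic macrophages of the marginal zone. The TAM receptors AXL and MERTK bind dead cells through the bridging proteins GAS6 and protein S, and CD5L and ficolin A are secreted by macrophages.

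Gab3 and Cd5l exceeded a 2-fold difference, both with more signal on the array labelled SIRPα-KO. Adgre1, Vcam1, Siglec1, Csf1r and Csf1 differed by less than 2-fold at their brightest probe. For Axl, read on the WT array only, the size of the difference could not be given, and no member was counted as 2-fold lower. Of the 10 genes, 8 were measured, meaning that the brightest probe was well above background by the scanner software's own flag on at least 1 array. The background was 3.12% of the 15827 measured genes higher by that limit and 5.41% lower. Differences are always the array labelled SIRPα-KO minus WT on the log2 scale. The median difference was 0.48 over the 8 measured members and -0.08 over all measured genes. Axl entered the median of 0.48 as 0, because its bound reached no fold. The members' median was 0.31 without scaling, 0.19 after normexp background correction and 0.66 after cyclic loess. All these medians took the brightest probe of each gene. With the dimmest probe well above background on both arrays, Adgre1 gave -0.47, Siglec1 -0.65, Gab3 0.13 and Csf1r 0.32. Vcam1, Csf1 and Cd5l had only 1 such probe. The Gab3 result rested on 1 of its 2 probes, and Cd5l had a single probe.

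The promoter sequences shown are those of Cd5l and Csf1. Both were well above background on both arrays and had an entry found in the RefSeq promoter table (GRCm38.p6). Entries were found for 5 of the 10 genes. The search left out the chromosome that carries Csf1r, so whether that gene had an entry was not read. The 250 bases before each start site are shown, 5′ to 3′ on the strand of the gene. Capitals mark matches to the core letters bound by MAF factors (TGCTGA or, on the other strand, TCAGCA) and by PU.1 (GAGGAA or TTCCTC), both families of macrophage transcription factors.
Cd5l, chr3:87357631-87357880, plus strand: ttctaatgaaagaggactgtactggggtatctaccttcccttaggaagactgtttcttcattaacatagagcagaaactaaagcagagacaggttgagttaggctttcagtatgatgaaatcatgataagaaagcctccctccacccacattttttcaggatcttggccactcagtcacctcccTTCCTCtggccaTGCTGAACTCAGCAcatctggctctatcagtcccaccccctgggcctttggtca
Csf1, chr3:107760470-107760719, minus strand: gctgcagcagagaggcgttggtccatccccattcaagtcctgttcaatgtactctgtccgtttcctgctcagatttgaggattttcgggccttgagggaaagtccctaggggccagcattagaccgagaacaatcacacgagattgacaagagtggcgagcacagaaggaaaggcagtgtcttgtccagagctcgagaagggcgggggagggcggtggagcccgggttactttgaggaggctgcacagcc
The Cd5l sequence held 1 PU.1 core and 2 MAF cores that face each other 2 bases apart, 41 to 54 bases before the start site. The 2 bases between these MAF cores are also shown in capitals. The Csf1 sequence held neither. Among 32536 promoters of the same length, 16.1% held a MAF core and 23.4% a PU.1 core. A facing pair of MAF cores with this spacing was in 2 (0.00615%), that of Cd5l included. That pattern was looked for after the Cd5l sequence had been read. Of the other 3 members with an entry found, Fcna held 2 MAF cores and 3 PU.1 cores, Axl 1 PU.1 core and Mertk neither. These matches describe letters only, and no binding was measured here.

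Before the members, the arrays and labels were checked. The WT array had 28170 and the other array 25734 of 39386 probes well above background, and no spot was saturated. Sirpa, the targeted gene, had 1 probe, which read 795 for WT and 1006 for SIRPα-KO, a difference of 0.51 ± 0.20. Its signal was thus not lost under the knockout label. No source used here places this probe inside or outside the deleted part, and every direction below follows the labels alone: WT and SIRPα-KO stand for the arrays so labelled. Of 8 macrophage markers with a probe, 6 were measured, and of 11 red pulp macrophage markers 9. Their summed signals, as multiples of the 75th percentile of each array, were 141 for WT and 204 for SIRPα-KO in the macrophage list, and 15.8 and 11.3 in the red pulp list. Single probes carried much of this: without Adgre1 the first sums were 72.5 and 86.8, and without Hpgd the second were 7.76 and 7.51. These lists are not separate from the members. The first holds Adgre1, Csf1r and Mertk, and the second Vcam1 and Cd5l. Most of what remained in the first list without Adgre1 was Csf1r. Mrc1, the mannose receptor, Mertk, Itgad and the metal transporter Slc11a1 were not well above background on either array. Markers of other spleen cells also gave signal, with all 6 B cell, 7 T and NK cell and 6 erythroid markers measured. Being measured needs 1 array only, and 15827 of 20642 named genes met that rule. On the SIRPα-KO array 6, 5 and 5 of these markers were well above background. Fewer cells of a type and less RNA per cell cannot be told apart in these samples.

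The signal of a spot is given as intensity after the software's background subtraction, with the software's own error, which covers the spot measurement and not the animals. Differences are of signals scaled to the 75th percentile of each array (100.1 for WT, 89.0 for SIRPα-KO), so a probe with equal signals has a difference slightly above 0. The brightness of a probe also depends on its own sequence, so ranks place a probe on its array and do not order the genes by transcript level.

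**Figure D1:**
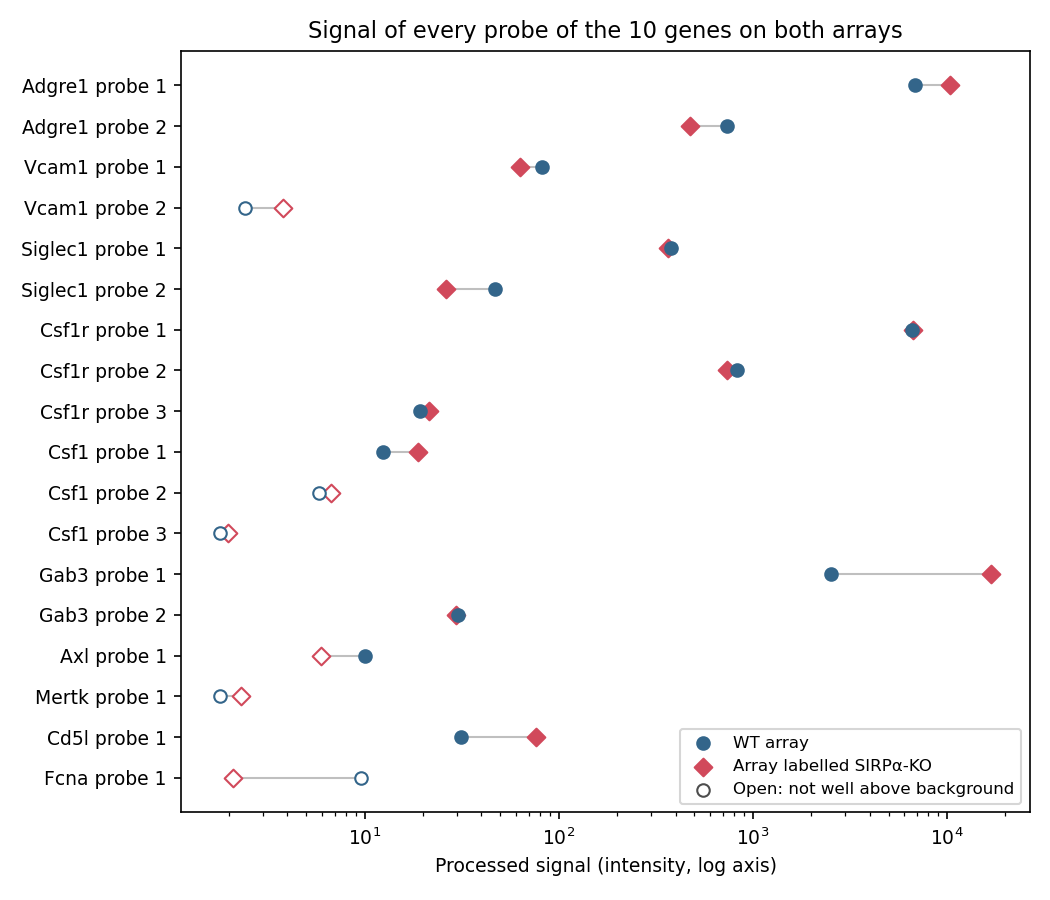
Processed signal (horizontal, log axis) of all 18 probes of the 10 genes, with a circle for the WT array and a diamond for the array labelled SIRPα-KO, open where the probe was not well above background. The brightest Gab3 probe moved from 2513 to 16904, whereas its other probe stayed at 30.3 and 29.5.

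Adgre1 encodes F4/80, the adhesion receptor used as the sort marker, and had 2 probes for the same transcript (NM_010130). The brighter probe read 6830 ± 683 for WT and 10406 ± 1041 for SIRPα-KO, rank 890 and rank 465 of 39386 probes. The dimmer probe read 737 ± 73.7 and 474 ± 47.4. The probes thus went opposite ways. The brighter differed by 0.78 ± 0.20 and the dimmer by -0.47 ± 0.20, both less than 2-fold. After quantile normalization and in the authors' deposited table the brighter probe reached 1.06 and 1.03, past the 2-fold limit.

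Vcam1, which encodes an adhesion molecule that binds α4β1 integrin, read 82.1 ± 8.38 for WT and 63.2 ± 6.61 for SIRPα-KO (NM_011693). The difference of -0.21 ± 0.21 was no larger than the spot error. A further Vcam1 probe was not well above background on either array.

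Siglec1, the sialic acid receptor CD169, also had probes that disagreed in sign (NM_011426). Its brighter probe read 380 ± 38.0 and 368 ± 36.8, a difference of 0.12 ± 0.20 that turned to -0.05 without scaling. Its dimmer probe read 46.7 ± 5.00 and 26.4 ± 3.30, a difference of -0.65 ± 0.24. Neither reached 2-fold.

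The CSF1 receptor itself was nearly level. Csf1r had 3 probes (NM_001037859), all well above background on both arrays. They read 6601 and 6697, 827 and 739, and 19.3 and 21.4 for WT and SIRPα-KO. The differences were 0.19 ± 0.20, 0.01 ± 0.20 and 0.32 ± 0.29. All 3 lay within or close to the spot error, and no setting brought the brightest probe to 2-fold. The second turned to -0.09 after normexp background correction and to -0.16 without scaling.

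Csf1, which encodes the ligand, gave little signal. Of its 3 probes, 1 (NM_001113530) was well above background, reading 12.4 ± 2.03 for WT and 18.9 ± 2.63 for SIRPα-KO. The lowest signals flagged as well above background were 7.92 and 9.09, so the difference of 0.77 ± 0.31 was read near the floor. The probe for another transcript (NM_007778) was spotted 10 times and averaged 1.80 and 1.98, not well above background on either array.

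Gab3, an adaptor of CSF1 receptor signalling, showed the largest difference of the list at 1 probe and a difference within the spot error at the other (both NM_181584). The brighter probe read 2513 ± 251 for WT and 16904 ± 1690 for SIRPα-KO, moving from rank 1731 to rank 301. This is 7.57-fold higher, a difference of 2.92 ± 0.20, and only 3 of 15827 measured genes, Gab3 included, were as high. The dimmer probe read 30.3 ± 3.62 and 29.5 ± 3.56, a difference of 0.13 ± 0.24 that turned to -0.04 without scaling. A comparison of each gene's 2 brightest probes was possible for 2611 genes, and the median gap between their differences was 0.42. The 2 probes had differences of the same sign in only 54.2% of these genes. For Gab3 the gap was 2.79, and 15 genes had one as large. The gap was 1.24 for Adgre1, 0.78 for Siglec1 and 0.18 for Csf1r. The local background around the Gab3 spot was 19 and 21, and the brightest of its 14 neighbouring spots read 7114 for WT and 4183 for SIRPα-KO, the latter below the Gab3 signal.

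**Figure D2:**
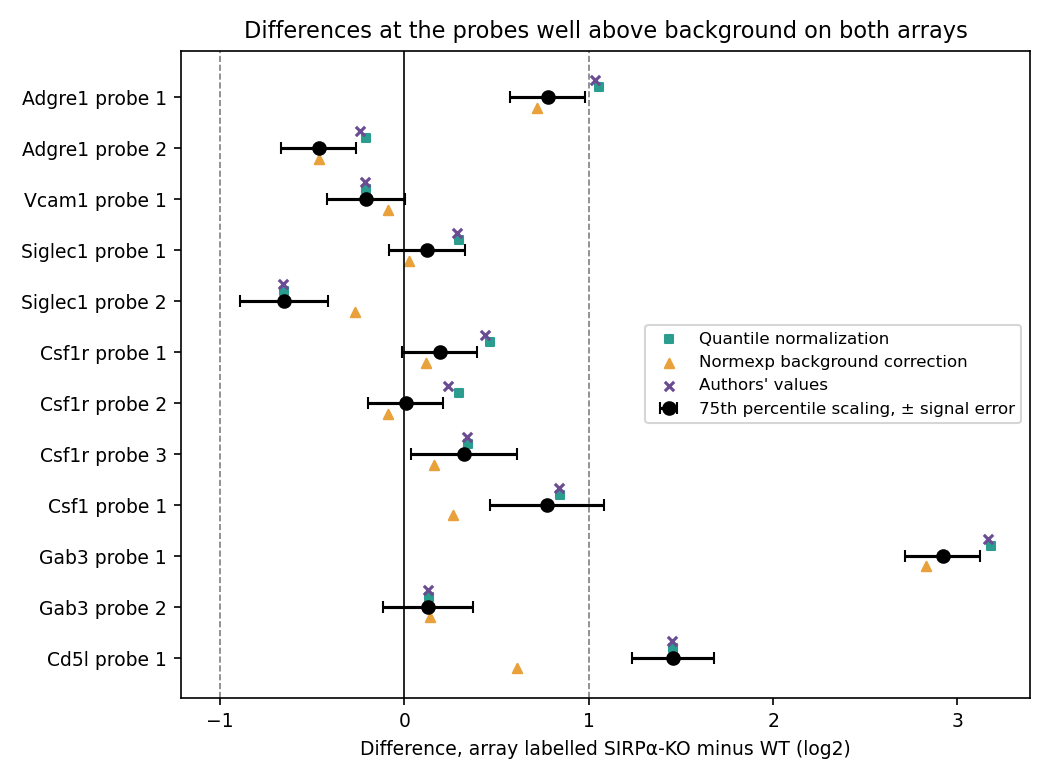
Difference (horizontal, log2, array labelled SIRPα-KO minus WT) at the 12 probes well above background on both arrays, with the software's signal error as bars and dashed lines at 2-fold. Squares, triangles and crosses give the same probes after quantile normalization, after normexp and in the authors' values. Only Gab3 probe 1 lies beyond 2-fold in all 4, and Cd5l falls to 0.61 after normexp.

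The TAM receptors could hardly be read. Axl (NM_009465) read 10.1 ± 1.94 for WT, well above background, and 5.98 ± 2.00 for SIRPα-KO, not well above background. Because the lowest signal flagged there was 9.09, the bound on the change reached no fold. Mertk (NM_008587) read 1.81 and 2.30 and was not well above background on either array, so no fold is given.

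Among the secreted proteins, Cd5l was the member whose only probe differed by more than 2-fold. Cd5l, an inhibitor of apoptosis related to scavenger receptors (NM_009690), read 31.5 ± 3.62 for WT and 76.8 ± 7.94 for SIRPα-KO, moving from rank 17834 to rank 10940. It was 2.75-fold higher, a difference of 1.46 ± 0.22, and 130 of 15827 measured genes were as high. It lay between 1.29 and 1.54 under 11 of 12 other settings and at 0.61 after normexp background correction with an offset of 50. Fcna, which encodes the lectin ficolin A (NM_007995), read 9.54 ± 2.29 for WT and 2.11 ± 2.11 for SIRPα-KO. It was not well above background on either array, and its sign depended on the processing, with -2.01 for the scaled signals and 0.06 after normexp.

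The members were also set beside genes of like brightness. The bright end of the arrays leaned towards less signal under the SIRPα-KO label. For 486 genes whose mean signal lay within 2-fold of that of Adgre1, the median difference was -0.35, and 23 were as high as its brighter probe, Adgre1 included. For Csf1r, 114 of 515 such genes were as high. For Gab3, 2 of 522 were, and for Cd5l 35 of 5235. For Vcam1, 1548 of 4814 were as low.

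**Figure D3:**
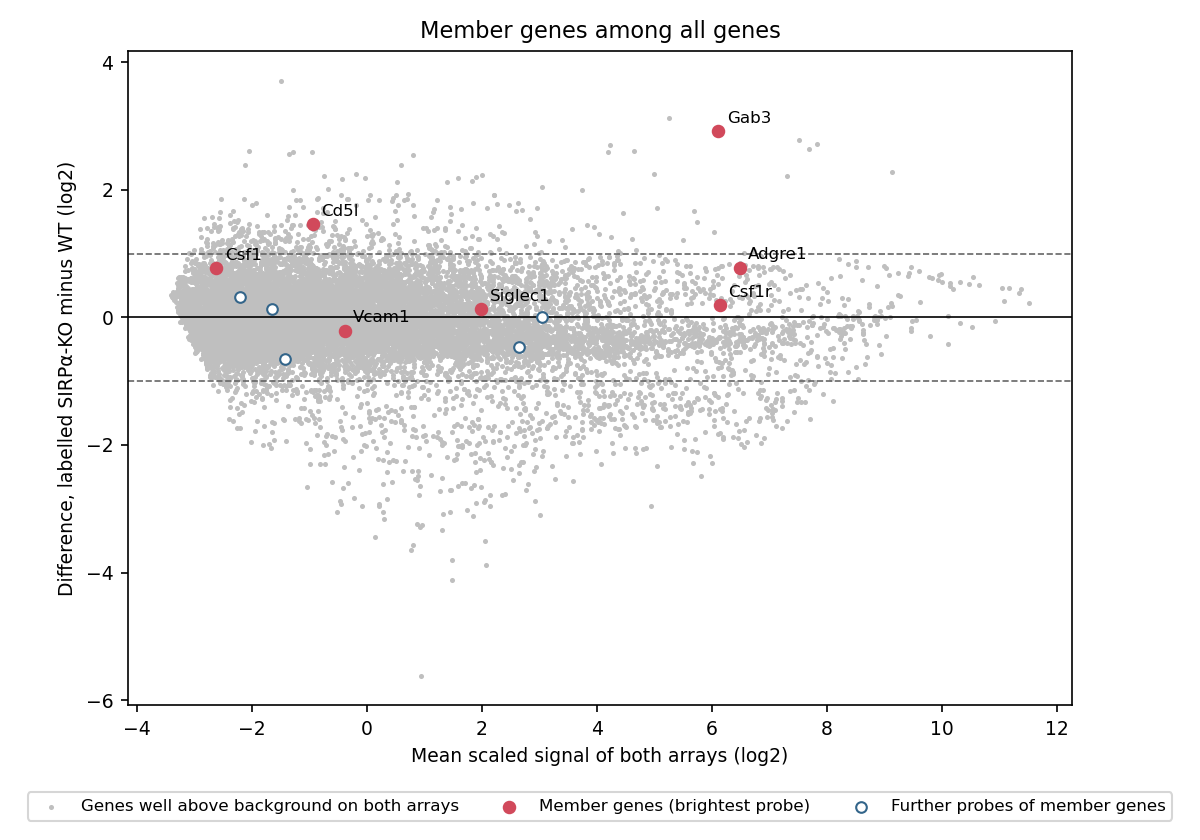
Difference (vertical, log2, array labelled SIRPα-KO minus WT) against mean scaled signal (horizontal, log2) for the 14154 genes well above background on both arrays in grey, with the 7 member genes among them in red and their further probes as open circles. Gab3 and Cd5l lie above the dashed 2-fold line, and the further Gab3 probe lies near 0.

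Related genes were examined in 7 lists. In the CSF1 receptor pathway, 15 of 19 genes were measured and 0 were counted as 2-fold apart, with a median of 0.01. The kinase gene Lyn was below the background limit for SIRPα-KO, so that it was at least 1.84-fold lower and a 2-fold difference could not be told. Il34, the second ligand of the receptor, differed by -0.66 ± 0.28, and Plcg2, a phospholipase and the brightest probe of the list, by 0.66 ± 0.20. In the list of TAM receptors, ligands and uptake genes, 16 of 18 were measured, with 1 higher by 2-fold or more, 2 lower and a median of -0.12. Stab1, a scavenger receptor, was higher by 1.39 ± 0.21, and Cd36 and Adgrb1, receptors of dead cells, were lower (-1.67 and -1.17), with a further Adgrb1 probe at -0.19. Stab1 gave 0.83 after normexp and Adgrb1 gave -0.85 after quantile normalization, both short of 2-fold. The bridging protein gene Gas6 differed by -0.23 ± 0.28 (0.02 after normexp) and Tyro3, the third TAM receptor, by 0.03 ± 0.27. Pros1, which encodes protein S, was not well above background. Socs3, the brightest probe of this list, differed by -0.02.

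Of 12 adhesion receptors of the family of F4/80, 8 were measured. Of these 3 were lower by 2-fold or more and 0 higher, with a median of -0.35. The lower genes were Adgrl2 (from 73.6 to 17.1, -1.93 ± 0.26), Adgrg6 (from 61.7 to 23.6, -1.21 ± 0.24) and Adgrb1. The list holds only part of the family. Over all 21 measured genes named Adgr or Celsr other than Adgre1, a set taken after the values were seen, 4 were lower, 0 higher and the median was -0.20. After normexp Adgrl2 and Adgrg6 gave -0.76 and -0.40, short of 2-fold. Among 9 measured partners of VCAM1 and other adhesion genes 0 were 2-fold apart. Itga4, which encodes the α4 integrin chain, differed by -0.39 ± 0.21, and Itgb1, its partner chain, was not well above background. Itgam, which encodes the CD11b of the sort gate, differed by 0.76 ± 0.20 at its brightest probe and by -0.01 and 0.13 at 2 further probes.

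Of the 7 measured sialic acid receptors, 9 scavenger receptor cysteine-rich proteins and 9 lectin pathway genes, 0 were counted as 2-fold apart. Msr1, a scavenger receptor, and Mbl1, a mannose-binding lectin, were above the background limit on 1 array only. By the bound, which leaves out the spot error, Msr1 was at least 1.65-fold lower and Mbl1 at least 1.57-fold higher. A 2-fold difference could not be told for either. Without the bound Mbl1 differed by 0.66 ± 0.45, so its bound was close to the reading itself. The medians of these lists were 0.01, -0.08 and 0.08. Siglech and Lgals3bp, the brightest probes of the first lists, differed by 0.68 and 0.44, with further probes at 0.04 and -0.14. In the lectin pathway C3 differed by -0.96 at its brightest probe and 0.08 at another, and Fcnb, the other mouse ficolin gene, by -0.47 ± 0.21. Of the 9 measured genes on the red pulp marker list, Vcam1 and Cd5l included, 3 lay above 0 and 6 below. The median was -0.21. Several of these transcripts were named with the lists. Cd163 differed by -0.56 ± 0.24 and Pparg by 0.29 ± 0.21. Spic, the transcription factor of the lineage, read 53.6 on each array (0.17 ± 0.22). The iron exporter Slc40a1 differed by -0.14 ± 0.21, heme oxygenase Hmox1 by -0.31 ± 0.20 and the receptor Treml4 by -0.29 ± 0.23. Hpgd, a prostaglandin-degrading enzyme on the red pulp marker list, was 2.14-fold lower at its brightest probe (805 and 334) and -0.16 at a further probe, where SIRPα-KO was at a bound. The brightest probe gave -0.86 after quantile normalization, -0.97 after normexp and -0.89 in the authors' deposited table, all short of 2-fold.

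**Figure D4:**
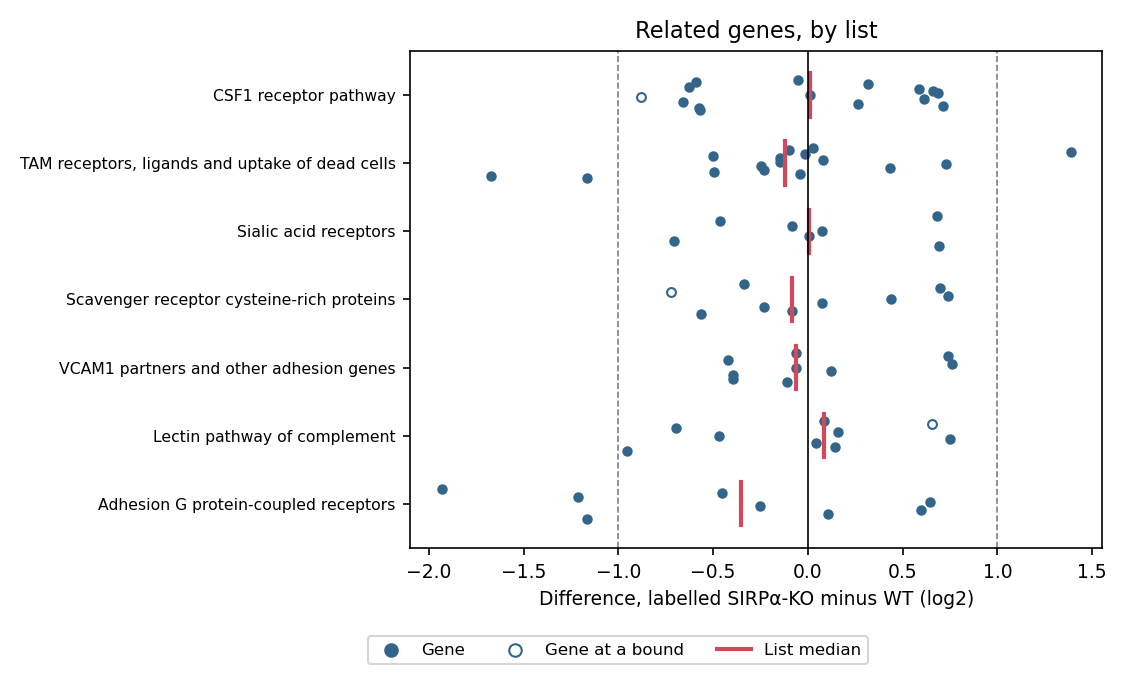
Difference (horizontal, log2, array labelled SIRPα-KO minus WT) of each measured gene in the 7 lists of related genes, with the list median as a red bar, open circles for genes at a bound and dashed lines at 2-fold. No plotted value of 5 lists lies beyond 2-fold, and 3 adhesion receptors lie below it.

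Markers of cells that share these transcripts moved unevenly. Summed over the brightest probes, as multiples of the 75th percentile of each array, the 13 measured stromal and endothelial markers gave 151 for WT and 56.1 for SIRPα-KO. Most of this was 1 probe of Ccl19, and without it the sums were 22.3 and 19.6. Sums for the 5 measured monocyte markers were 116 and 193, and 5.996 and 6.175 without Itgam. Those for the 3 measured markers of marginal zone macrophages were 20.6 and 31.5, and 5.39 and 6.09 without Marco. Siglec1 is itself 1 of these 3 markers and made up most of the sums left without Marco. The part of these cells in the values of Vcam1, Csf1, Adgre1 and Siglec1 was not tested.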

How the data were processed

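RNA of sorted cells was labelled with Cy3 and hybridised to 1-colour Agilent arrays (design 026655). Per the file headers, Agilent Feature Extraction 11.0.1.1 made the intensity of each spot (gProcessedSignal), background-subtracted and without normalization between arrays, and the annotation uses mm9. The log2 values in the authors' deposited table have a median of 4.56 on each array and nearly the same quantiles, 0.184 apart at most, and no source used here names their normalization. For the report, control and outlier-flagged spots were left out, spots of a probe averaged, and log2 intensity taken minus the 75th percentile of its array. A gene is its brightest probe. Where 1 array was not well above background, its side was set to the lowest signal that was, unless it already read higher. Values given as "at least" are such bounds and leave out the spot error. Errors combine the signal error that the software gives each spot, and precision is limited by there being 1 array a genotype. Normexp used median signals, since the tables hold no mean signal. It added an offset of 50 to every signal, so a smaller difference after normexp at a dim probe is partly built in. Names came from RefSeq accessions (GRCm38.p6). Python 3.11.15, pandas 2.3.3, R 4.3.3 and limma 3.58.1 were used, and the calculations were tested on simulated data. Named from the lists were genes at least 2-fold apart, the brightest probe of each list and a fixed set of partners. The 10 genes, the lists and the tests were chosen with earlier results of these data known.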

Additional observations from a re-analysis of the deposited data

How the results depend on the processing

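No paired analysis was possible because each genotype has 1 array, and no replicate could be left out. The main setting gave 494 genes higher and 856 lower by 2-fold or more. Higher genes numbered 304 without scaling, 102 after normexp and 881 with no filter on dim probes, which also gave 1638 lower. A limit of 1.5-fold gave 1810 higher and 2081 lower, and 3-fold gave 103 and 369. Of the members, 2 were higher in the main setting and 4 at 1.5-fold. After normexp and at 3-fold only Gab3 was. With the dimmest probe, or where every measured probe had to agree, only Cd5l was, which had a single probe. The rule of agreement and normexp on median signals were added after seeing the data. With no filter 1 member, Fcna, was lower. With Adgre1, 3 members were higher after quantile normalization, cyclic loess and in the authors' values. The median of all genes was -0.08, and -0.25 without scaling. Higher genes made up 36.6% of those 2-fold apart, 20.8% without scaling, 48.4% after quantile normalization and 15.0% after normexp. Over 12 settings Gab3 ranged from 0.13 (dimmest probe) to 3.18, Adgre1 from -0.47 to 1.06 and Siglec1 from -0.65 to 0.29. Csf1r (0.02 to 0.47), Csf1 (0.26 to 0.89) and Vcam1 (-0.38 to -0.09) kept their sign. The offset used with normexp draws the differences of dim probes towards 0. The cause of the other shifts was not tested.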

Other observations

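Some markers outside the list of 10 genes were 2-fold apart at their brightest probe. The chains of complement C1q went different ways: C1qc was higher by 1.11 (0.84 after normexp), C1qb differed by -0.34, and C1qa, at a bound for SIRPα-KO, was at least 1.56-fold lower. Fcgr1, the high-affinity IgG receptor, was higher by 1.23 and fell just short of 2-fold after normexp (0.995). Among endothelial and stromal markers Ccl19, a chemokine of the T cell zone, was lower (-1.82) at its brightest probe, with 0.04 and -0.01 at 2 further probes. Emcn, an endothelial sialomucin, was lower (-1.07, and -0.44 after normexp). The B cell markers summed to 20.4 for WT and 8.96 for SIRPα-KO, but to 4.96 and 5.28 without Cr2, whose further probe was at 0.31. The dendritic cell markers summed to 810 and 1284, but to 14.2 and 7.32 without Siglech, with Flt3, a cytokine receptor, at -1.07 and -2.25 at its 2 probes. The neutrophil markers summed to 458 and 442, and to 1.32 and 0.716 without Elane. S100a8, a calcium-binding protein, was at -1.23, and at -0.52 after normexp. The T and NK cell sums were 84.1 and 69.5 (22.5 and 14.9 without Cd4), and the erythroid sums 200 and 151 (9.04 and 7.499 without Ermap). Leaving out the brightest marker was a choice made after seeing the data.

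The spread of differences varied with the probe series, a split chosen after seeing the data. Of 3698 bright probes whose names start with A_55, at 4 times the 75th percentile or more, 4.16% were 2-fold higher and 12.0% lower. Of 764 bright probes of the A_51 and A_52 series 0.916% were higher and 24.5% lower. Below that brightness the shares were 3.24% and 2.61% of 13541 probes, and 2.72% and 3.68% of 5892. The brightest probe was of the A_55 series for 6 of the 10 member genes, Gab3 and Adgre1 among them. Its part in their values was not tested.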
